A study of Mus musculus with 52 samples.

Results

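The cerebral cortex of wild-type (WT) mice was sampled with RiboTag, and the RNA recovered with tagged ribosomes of endothelial cells (ECs), called bound, was set against the RNA of the same kind of homogenate before the pull-down, called input. The members are the libraries that the labels place in WT cortex, 2 bound and 2 input, and they are 4 of the 52 libraries of the series. All 4 came from adult male mice of the genotype RiboTag; Pdgfb-CreER, so that the tag allele and the recombinase were shared by both groups. In RiboTag mice a Cre recombinase switches the ribosomal protein gene Rpl22 to a copy that carries a hemagglutinin (HA) epitope. The CreER here is expressed under Pdgfb regulatory sequences, which in the brain drive recombination mainly in ECs. Per the study the CreER was activated by 4-hydroxytamoxifen several weeks before the tissue was taken. Cortex was frozen and homogenized, the homogenate was cleared by centrifugation, and an aliquot of homogenate was kept as input. The methods do not say whether that aliquot was cleared. The supernatant was incubated with an anti-HA antibody and protein G beads, and the beads were washed at high salt. Other RiboTag preparations and a cell sort enter only for comparison. They are cortex of beta-catenin stabilized mice (RiboTag; Pdgfb-CreER; BcatEx3fl, in which ECs lose exon 3 of Ctnnb1), choroid plexus of WT RiboTag; Pdgfb-CreER mice, pooled from several animals per sample, and cerebellum cells of WT Tie2-GFP mice sorted into GFP-positive ECs and GFP-negative cells. All of these were adult males, and each group held 2 libraries.

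ECs line every blood vessel and make up a small part of the cells of the brain, so a whole-tissue homogenate is dominated by transcripts of neurons and glia. In most of the brain ECs form the blood-brain barrier (BBB): tight junctions seal them to each other, nutrients cross on dedicated transporters, efflux pumps return lipophilic compounds to the blood, and the cells lack fenestrae. This state depends on Wnt ligands made by neural cells, which act on Frizzled receptors and beta-catenin in the ECs. A pull-down of EC ribosomes is read against its input: transcripts of ECs are expected to be enriched and those of cells without the tag to be depleted. Microglia, the resident macrophages of the brain, belong to another lineage than ECs and have myeloid surface receptors, those for the Fc part of antibodies among them. Pericytes and smooth muscle cells wrap the vessels and are often recovered together with ECs when cells are sorted.

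The bound libraries held 14699601 and 21399125 estimated reads and the input libraries 21211999 and 21193148. Levels are given as TPM, the share of a transcript among all transcripts after division by length, summed over the transcripts of a gene, in the order replicate 1 and replicate 2. The methods describe the replicates as biological, and the labels do not say which mice each came from. Over the genes tested, log2 levels of the 2 bound libraries correlated with r = 0.903 and those of the 2 inputs with r = 0.964. Bound and input libraries of the same replicate number correlated with a mean r of 0.877. These are values across genes that are not independent. Transcripts of the mitochondrial genome took 23.8% and 23.2% of TPM in bound and 39.4% and 37.9% in input. A remaining class held the genes that are not mitochondrial, protein-coding, long noncoding or pseudogenes. It took 16.4% and 18.6% of bound TPM and 10.7% and 7.24% of input TPM on 0.137% to 0.210% of the reads, so TPM of all other genes carries that difference.

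Of 18241 genes tested with edgeR's quasi-likelihood test, 1361 (7.46%) were higher in bound and 763 (4.18%) lower, at an adjusted p below 0.05 and at least a 2-fold change. Among the higher genes 1330 were protein-coding. The lower genes held 692 protein-coding genes, 27 pseudogenes and 11 genes of the mitochondrial genome. The median log2 fold change of all genes tested was -0.33, and list medians below are read against it. The split depended on the scaling: 64.1% of the called genes were higher with the trimmed mean of M-values (TMM), 74.0% with relative log expression (RLE), 79.5% with the upper quartile and 83.0% with total counts. Higher calls came to 1361 to 1567 genes under these scalings, and lower calls ranged from 321 to 763. The lower count also moved with other choices, to 96 with the 4 WT cortex libraries alone, 173 with a length offset, 159 without bound replicate 1, 1848 without bound replicate 2, and 355 and 332 without input replicate 1 and input replicate 2. In bulk RNA, fewer cells of a type and less RNA per cell cannot be told apart.

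EC-enriched transcripts were defined by an adjusted p below 0.05, at least a 2-fold change and at least 10 TPM in both bound libraries, and 669 genes (3.67%), of which 657 were protein-coding, met all 3 criteria. Together they accounted for 9.15% and 8.70% of bound TPM and 1.26% and 1.30% of input TPM. The median of their log2 fold changes was 2.64. The criteria fixed the direction of these values, which describe the size of the set only. The set also held all 12 microglia genes and 4 of 7 spectrin genes, so its share is not one of ECs alone. The bound libraries were not equal for these transcripts: 570 of the 669 were higher in bound replicate 1 and 99 in bound replicate 2, with at least a 2-fold difference for 157 and 31 of them. The same count over all genes tested is not given, so whether this is particular to these transcripts cannot be said.

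The tagged gene itself was not called. Rpl22 was at 58.7 and 46.7 TPM in bound and 33.6 and 37.5 TPM in input (log2 fold change 0.27 ± 0.27 (SE), adjusted p = 0.54), values that pool tagged and untagged alleles and therefore do not measure recombination. Pdgfb, the growth factor gene whose regulatory sequences drive the CreER and which ECs use to recruit pericytes, was at 17.8 and 7.30 TPM in bound and 2.18 and 1.19 TPM in input and rose by 2.63 ± 0.34 (SE), adjusted p = 0.000167. Ctnnb1, which encodes beta-catenin, was at 601 and 357 TPM in bound and 189 and 239 TPM in input and was not called, since its log2 fold change from the counts was below the 2-fold limit while the TPM means were further apart (0.62 ± 0.16 (SE), adjusted p = 0.0178).

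Genes that mark ECs of all vessels were at low levels in the cortex homogenate and far higher in the pull-down. All 16 pan-endothelial genes tested were called higher in bound, with a median log2 fold change of 4.61, where 7.46% of all genes were called higher. Among the 10 of them with at least 1 TPM in input, the median ratio of bound to input TPM was 32.5, and it was 35.3 in replicate 1 and 26.1 in replicate 2. Summed over the list, bound held 2518 and 1195 TPM and input 95.3 and 70.3 TPM.

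Pecam1 (chr11:106654217-106750628, minus strand, GRCm38), an adhesion molecule of EC contacts, was at 182 and 94.8 TPM in bound and 0.923 and 3.82 TPM in input (log2 fold change 4.99 ± 0.36 (SE), adjusted p = 1.6e-06). Cdh5 (VE-cadherin), the cadherin of EC adherens junctions, was at 43.4 and 15.4 TPM in bound and 0.919 and 0.808 TPM in input (4.64 ± 0.38 (SE), adjusted p = 3.47e-06). For both genes the bound libraries were far above the inputs with no overlap, and bound replicate 1 was the higher of the pair. The receptor genes followed. Kdr, the main receptor for vascular endothelial growth factor, was at 34.2 and 19.4 TPM in bound and 0.701 and 0.742 TPM in input (4.75 ± 0.27 (SE), adjusted p = 4.42e-07). Tek, a receptor for angiopoietins, was at 81.2 and 43.6 TPM in bound and 1.59 and 1.59 TPM in input (4.88 ± 0.36 (SE), adjusted p = 1.78e-06), and Tie1, its partner, was at 10.3 and 4.78 TPM in bound and 0.108 and 0.181 TPM in input (5.27 ± 0.35 (SE), adjusted p = 1.1e-06). Both receptors were at under 2 TPM in each input. The ETS family transcription factors Fli1 and Erg differed in how evenly they were recovered. Fli1 was at 31.9 and 20.0 TPM in bound and 1.74 and 0.836 TPM in input (4.14 ± 0.42 (SE), adjusted p = 1.95e-05). Erg had no read in either input and 2 and 271 reads in the bound libraries, so that it was at least 91.9-fold higher over a floor of 3 input reads, with almost all of its reads in bound replicate 2. Its call was lost without that library (adjusted p = 0.141) and with either input left out (adjusted p = 0.0916 and 0.0927). The least enriched member was Egfl7, a secreted matrix protein of ECs, with 128 and 43.3 TPM in bound and 30.3 and 24.9 TPM in input (1.56 ± 0.28 (SE), adjusted p = 0.00181).

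**Figure D1:**
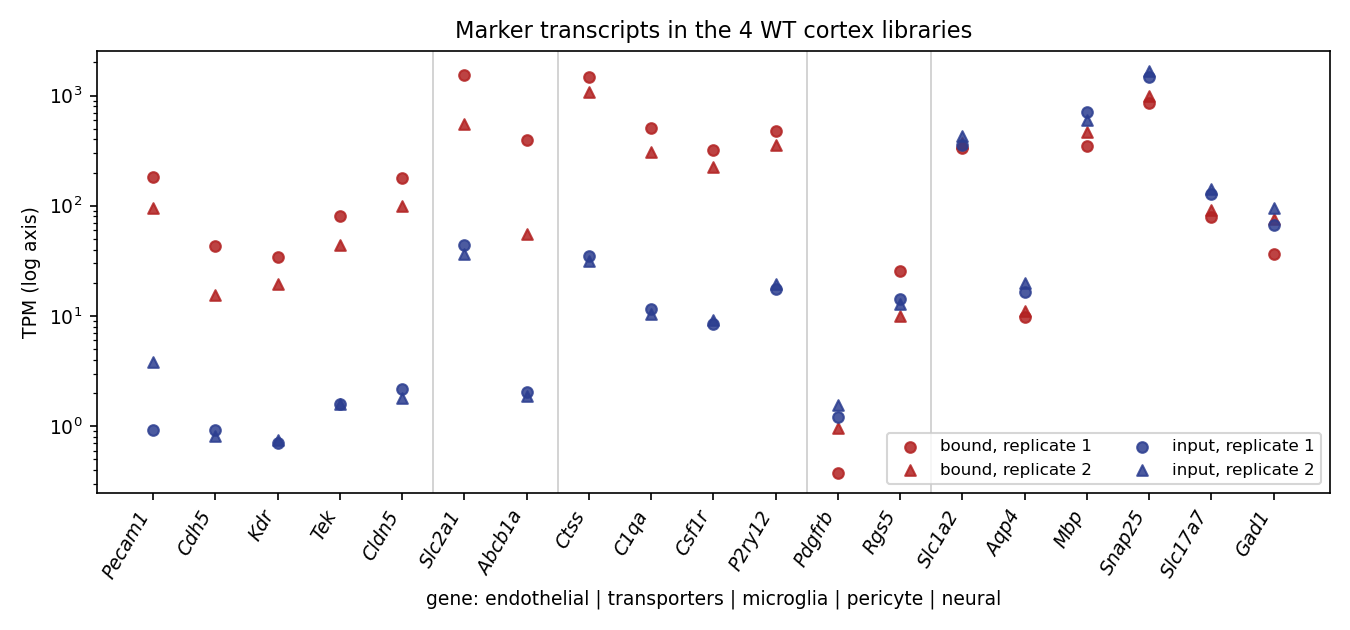
TPM on a log axis of marker transcripts, with 1 point for each of the 2 bound and 2 input libraries of WT cortex, grouped by the cell type they mark. Endothelial, transporter and microglial transcripts sit well above their inputs in both bound libraries, as for Pecam1 at 182 and 94.8 against 0.923 and 3.82 TPM and Ctss at 1479 and 1079 against 34.9 and 31.4 TPM, whereas pericyte and neural transcripts lie close to or under their inputs.

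Promoter sequence is shown for members of the lists that moved together, to let the enriched genes be read beside their own DNA. ETS family factors, Erg and Fli1 in ECs and Spi1 in myeloid cells among them, bind a core that was searched here as AGGAAG on either strand (CTTCCT on the other), in the 250 bases before each start in RefSeq (GRCm38.p6). RefSeq promoters were matched for 11 of the 16 pan-endothelial genes and 8 of the 12 microglia genes. The letters occurred in 6 of those 11 and 4 of those 8, in 2 of 8 pan-neuronal genes, in 35.3% of 513 EC-enriched genes, in 28.2% of 12585 genes tested and in 29.2% of all 27025 promoters. A match describes letters and not a bound site. Genes on a chromosome that was set aside were not eligible to be shown, and ties followed list order. Among the others, the 2 promoters with the most matches in each list are given 5′ to 3′ on the strand of the gene, with the motif in capitals: Egfl7 (chr2:26580833-26581082, plus strand, at the first of 3 listed starts) with 3 matches, Emcn (chr3:137340828-137341077, plus strand), which encodes an EC sialomucin, with 2, Fcrls (chr3:87263525-87263774, minus strand), a microglial Fc receptor-like gene, with 4, and C1qc (chr4:136892915-136893164, minus strand), a chain of complement C1q, with 2.
Egfl7: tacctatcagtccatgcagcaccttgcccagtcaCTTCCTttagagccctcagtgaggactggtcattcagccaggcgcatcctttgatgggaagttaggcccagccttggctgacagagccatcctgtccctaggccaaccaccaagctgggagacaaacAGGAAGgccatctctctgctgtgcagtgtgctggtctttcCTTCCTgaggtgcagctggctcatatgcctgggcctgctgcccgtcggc
Emcn: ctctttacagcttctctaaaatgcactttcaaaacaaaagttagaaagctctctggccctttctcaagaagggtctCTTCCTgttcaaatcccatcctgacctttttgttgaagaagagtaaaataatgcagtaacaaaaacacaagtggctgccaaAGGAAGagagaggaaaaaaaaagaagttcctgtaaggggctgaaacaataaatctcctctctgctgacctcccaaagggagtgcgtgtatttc
Fcrls: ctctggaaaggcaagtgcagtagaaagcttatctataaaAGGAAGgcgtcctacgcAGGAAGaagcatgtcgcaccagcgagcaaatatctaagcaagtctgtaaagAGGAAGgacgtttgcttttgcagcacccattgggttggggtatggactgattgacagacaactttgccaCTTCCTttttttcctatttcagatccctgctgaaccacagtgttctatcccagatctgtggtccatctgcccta
C1qc: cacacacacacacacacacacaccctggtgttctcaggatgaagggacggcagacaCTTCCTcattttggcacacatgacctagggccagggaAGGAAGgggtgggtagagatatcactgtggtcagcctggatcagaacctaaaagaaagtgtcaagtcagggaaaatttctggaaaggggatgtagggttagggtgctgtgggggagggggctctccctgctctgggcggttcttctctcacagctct

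Transporters of the BBB made up the most abundant endothelial list in the pull-down. Of 18 barrier transporters, 17 rose in bound, with a median log2 fold change of 3.31, and their sum was 4026 and 1748 TPM in bound and 309 and 267 TPM in input. Slc2a1 (chr4:119108711-119137983), the glucose transporter of brain ECs, was at 1527 and 546 TPM in bound and 43.9 and 36.5 TPM in input (4.17 ± 0.39 (SE), adjusted p = 8.82e-06). The thyroid hormone transporter Slco1c1 was at 455 and 220.3 TPM in bound and 23.4 and 22.3 TPM in input (3.41 ± 0.27 (SE), adjusted p = 2.75e-06). Both were higher in every bound library than in any input. The organic anion transporter Slco1a4 rose by 4.57, the drug efflux pump Abcb1a by 5.13 (393 and 55.5 against 2.04 and 1.86 TPM) and its counterpart Abcg2 by 3.22, all on the log2 scale. Abcb1a also showed how unequal the bound libraries could be, with a level in replicate 1 several times that in replicate 2. Mfsd2a, which carries lysolipids into the brain and holds transcytosis low, was at 78.8 and 25.3 TPM in bound and 11.0 and 10.9 TPM in input (1.73 ± 0.33 (SE), adjusted p = 0.00332). Without input replicate 2 its adjusted p was 0.0517. Slc35f2, a solute carrier, was at 18.5 and 13.5 TPM in bound and 1.70 and 0.921 TPM in input (3.12 ± 0.47 (SE), adjusted p = 0.00069). The neutral amino acid transporter subunits differed, Slc7a5 with 2.86 and its heavy chain Slc3a2, which other cells also use, with 1.34. Only Tfrc, the transferrin receptor, did not pass the test, at 30.9 and 24.9 TPM in bound and 16.8 and 21.4 TPM in input (-0.02 ± 0.39 (SE), adjusted p = 1).

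Of 13 junction genes, 10 rose, with a median log2 fold change of 3.99. Cldn5 (chr16:18776847-18778262), the main claudin of the BBB, was at 179.8 and 99.8 TPM in bound and 2.18 and 1.80 TPM in input (5.57 ± 0.28 (SE), adjusted p = 4.42e-07). Ocln, another tight junction protein, rose by 3.99, Lsr, which organizes tricellular contacts, by 4.81, and the adhesion molecule F11r by 4.47. The scaffold gene Tjp1, which neurons and glia also express, rose by 1.48. Among the junction genes that did not pass was Cldn12, with a log2 fold change of -0.76.

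The Wnt list was called in part. Of 18 receptors, co-receptors and targets, 10 rose and 1 fell, with a median log2 fold change of 2.07. Among receptors and co-receptors, Fzd4, the Frizzled of brain and retinal vessels, rose by 3.21, Fzd6 by 3.57, the Wnt cofactors Reck and Adgra2 by 3.28 and 3.01, and the co-receptor Lrp5 by 2.50. The co-receptor Lrp6 (0.29) and the Frizzled partner Tspan12 (0.38) did not pass the test. Of the nuclear effectors, Lef1 and Tcf7 rose by 2.57 and 2.82 and Tcf7l1 was not called (0.06), whereas Tcf7l2, a relative that neurons and glia also express, fell from 26.5 and 30.9 TPM in input to 16.2 and 21.4 TPM in bound (-1.26 ± 0.37 (SE), adjusted p = 0.0348), a call that was lost without bound replicate 1 (-0.62) or with either input left out (-1.16 and -1.35). Of feedback inhibitors that are targets of the pathway, Notum (4.30), Apcdd1 (3.38) and Nkd1 (1.64, and 1.47 with no call without input replicate 2) rose, while the membrane ligases Znrf3 (-0.36) and Rnf43 (-0.94) were not called, and neither was the target Tnfrsf19 (0.66). Axin2, the most widely used target gene, was at 13.9 and 9.95 TPM in bound and 5.48 and 12.8 TPM in input (0.13 ± 0.24 (SE), adjusted p = 0.759), with overlapping libraries. Of 5 Wnt ligand genes of neural cells, the median was -0.92 and 1, Wnt5a, was called higher at 8.96 and 4.19 against 1.66 and 15.1 TPM (1.51 ± 0.48 (SE), adjusted p = 0.0488). Its TPM values overlapped between the fractions. Its adjusted p was 0.241 without bound replicate 1 and 0.151 and 0.232 with either input left out, and its sign turned with an offset for transcript length.

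Transcription factors of ECs were also enriched. Of 18, 17 rose, with a median log2 fold change of 4.28. Klf2, a factor induced by blood flow, was at 171 and 24.8 TPM in bound and 1.29 and 0.810 TPM in input (6.03 ± 0.79 (SE), adjusted p = 0.000157), and its relative Klf4 was at 112 and 23.4 TPM in bound and 4.76 and 1.97 TPM in input (4.33 ± 0.57 (SE), adjusted p = 0.000171). Both were several times higher in bound replicate 1 than in bound replicate 2, and without bound replicate 1 their log2 fold changes were 4.42 and 3.18. Of factors tied to the barrier or to vessel identity, Sox17 rose by 3.95 (not called without bound replicate 1, at 2.64, or input replicate 2, at 3.03), Sox18 by 5.82, Foxf2 by 5.13 and Foxq1 by 4.27. Foxo1, which is widely expressed, was not called at 0.39.

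Arterial and venous transcripts were both present. Of 11 arterial genes, 5 rose: Bmx (5.42), Sema3g (5.13), Gkn3 (4.58), Gja5 (3.19, with adjusted p of 0.145, 0.175 and 0.160 without bound replicate 1, input replicate 1 and input replicate 2) and Dll4 (4.10), a Notch ligand. Stmn2, which is on the arterial list and is also strongly neuronal, had a log2 fold change of -1.10 and was not called higher. Of 11 genes of veins and leukocyte adhesion, 7 rose, among them Vwf, the clotting factor carrier (4.73), and the adhesion receptors Icam1 (4.14) and Vcam1 (1.40, with adjusted p = 0.0509 without input replicate 1). The venous regulator Nr2f2 (0.01) and the chemokine receptor Ackr1 (-0.95) were not called. Of 9 genes of fenestrae and caveolae, 5 rose, Cav1 by 3.40 and Cavin1 by 3.94 among them. Plvap, which forms the diaphragms of fenestrae and is low in barrier ECs, was at 1.54 and 3.93 TPM in bound and 1.17 and 1.06 TPM in input (0.79 ± 0.68 (SE), adjusted p = 0.459) and did not pass, at -0.10 without bound replicate 2.

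Genes of vascular signaling, tone and matrix were mostly higher in bound. Of 18 signaling genes 15 rose (median 3.22), of 14 genes of vessel tone and clotting 11 rose and 1 fell (median 3.19), and of 15 genes of the basement membrane and integrins 12 rose (median 2.23). Flt1, a decoy receptor for vascular endothelial growth factor, was at 416 and 194 TPM in bound and 5.04 and 8.84 TPM in input (5.05 ± 0.40 (SE), adjusted p = 2.59e-06). Edn1, the vasoconstrictor endothelin, rose by 4.88 (3.62 without bound replicate 1 and 6.24 without input replicate 1), and Nos3, the nitric oxide synthase of ECs, by 3.70. The gene that fell was Ednrb, the endothelin receptor that astrocytes also express, with 14.2 and 16.8 TPM in bound and 20.0 and 25.1 TPM in input (-1.03 ± 0.23 (SE), adjusted p = 0.00853), and it was not called without bound replicate 1 (-0.65) or input replicate 2 (-0.90). Sparc, a matrix glycoprotein, was at 1355 and 924 TPM in bound and 159 and 149 TPM in input (2.41 ± 0.29 (SE), adjusted p = 8.42e-05), and Col4a1, a chain of basement membrane collagen, rose by 3.46. Of 12 genes of class I antigen presentation and the Ly6 family, 11 rose (median 3.17). Ly6c1, a surface protein of brain ECs, was at 1036 and 557 TPM in bound and 25.7 and 16 TPM in input (4.84 ± 0.35 (SE), adjusted p = 1.67e-06), and B2m, the light chain of class I molecules, was at 391 and 325 TPM in bound and 29.5 and 37.6 TPM in input (3.06 ± 0.24 (SE), adjusted p = 2.78e-06).

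**Figure D2:**
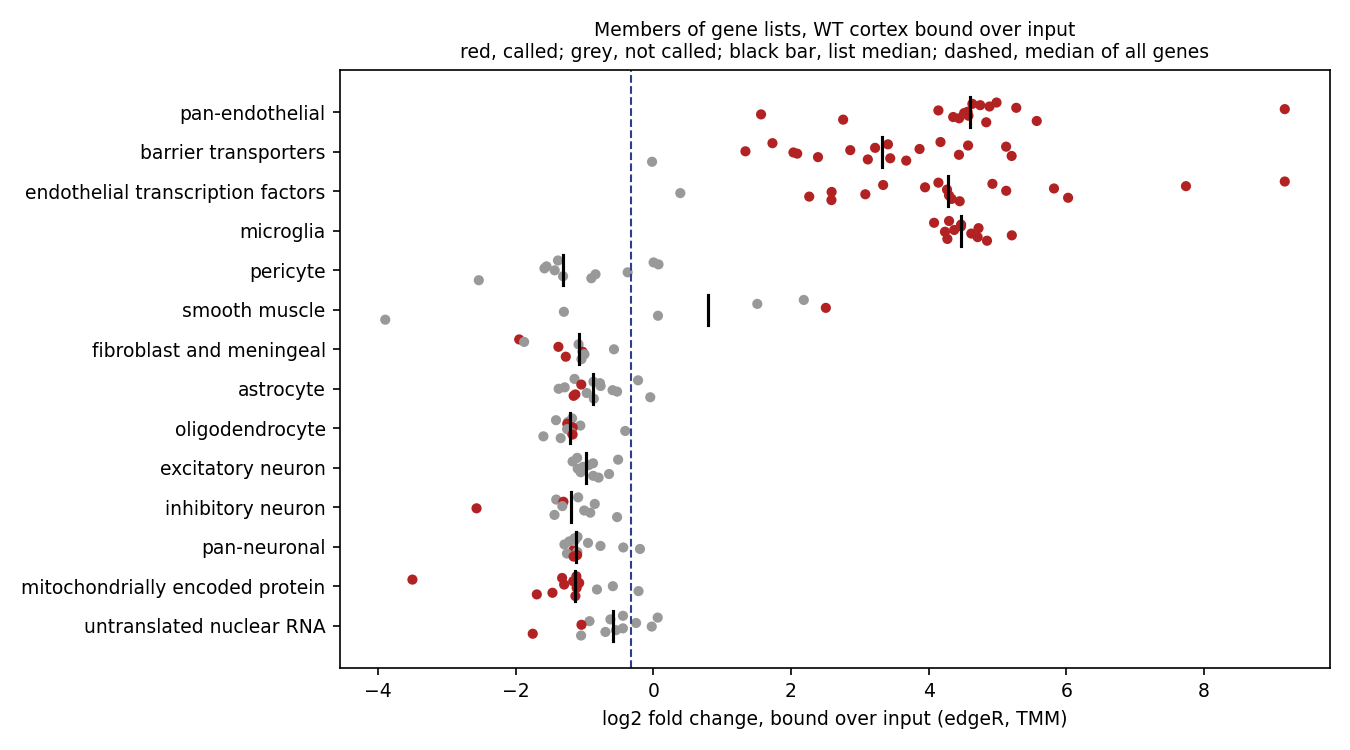
Log2 fold change of bound over input for each member of the gene lists, with called members in red and others in grey, the black bar at the list median and the dashed line at the median of all genes tested. Medians of the endothelial lists and the microglia list lie to the right, at 4.61 for pan-endothelial and 4.47 for microglia genes. Medians of the neural lists lie left of the dashed line at -0.33, with 2 of 15 astrocyte and 1 of 14 pan-neuronal genes right of it.

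Lists of neurons and glia had medians under that of all genes, and few of their members passed the test. Of the 70 tested genes on 6 lists of astrocytes, oligodendrocytes, their precursors and neurons, 0 were called higher and 12 lower, where 4.18% of all genes were lower. Without bound replicate 1 only Pdgfra was still called lower, so that the count went from 12 to 1, and it was 4 and 5 without input replicate 1 and input replicate 2. More of the 70 genes were called lower when bound replicate 2 was left out. Of 14 pan-neuronal genes 3 fell and 13 lay below the median of all genes. Their median was -1.12 (-0.68 without bound replicate 1 and -1.38 without bound replicate 2). Their ratio of bound to input TPM had a median of 0.627, with 0.573 in replicate 1 and 0.713 in replicate 2, while all genes at 1 TPM or more in input had a median ratio of 1.03. Snap25 (chr2:136713453-136782428), a component of the synaptic vesicle fusion machinery, was at 859 and 993 TPM in bound and 1489 and 1677 TPM in input (-1.14 ± 0.51 (SE), adjusted p = 0.149). The glycolytic enzyme Eno2 of neurons fell to 107 and 167 TPM from 205 and 231 TPM (-1.16 ± 0.20 (SE), adjusted p = 0.00168). The growth cone protein Gap43 and the reticulon Rtn1 fell, with log2 fold changes of -1.11 and -1.16. Leaving out bound replicate 2 gave -1.46 for Eno2, -1.38 for Gap43 and -1.37 for Rtn1. The 3 lower calls did not hold with every setting. With total counts, without a filter on low counts, with a length offset or with the 4 WT cortex libraries alone, 0 pan-neuronal genes were called. Without bound replicate 1 the count was 0 as well, with log2 fold changes of -0.70 for Eno2, -0.67 for Gap43 and -0.75 for Rtn1, and with either input left out it was 1.

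Among neuronal types, 12 excitatory neuron genes gave no call in either direction (median -0.98), and 10 inhibitory neuron genes gave 2 lower calls (median -1.20). Slc17a7, the vesicular glutamate transporter of cortical neurons, was at 78.3 and 90.8 TPM in bound and 127 and 141 TPM in input (-1.11 ± 0.73 (SE), adjusted p = 0.323). Vip, a neuropeptide of cortical interneurons, fell to 5.90 and 3.72 TPM from 20.9 and 21.2 TPM (-2.57 ± 0.77 (SE), adjusted p = 0.0449), and Slc32a1, which loads inhibitory transmitter into vesicles, fell with adjusted p = 0.0287. Neither call held with either input left out or without bound replicate 1, where Slc32a1 was at -0.87 and Vip, which was also lost without bound replicate 2, at -2.62. Regional markers of neurons gave no calls either, at a median of -0.98 for 8 cortical and -1.16 for 7 striatal genes. Striatal transcripts were present in the libraries labelled cortex: Ppp1r1b, a phosphatase regulator of striatal projection neurons, was at 134 and 118 TPM in input and 75.7 and 72.5 TPM in bound, and Penk, an opioid peptide precursor, was at 179 and 134 TPM in input and 120.0 and 67.6 TPM in bound. Cerebellar markers were near 0, with a summed level of 4.48 and 5.56 TPM in input.

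Glial transcripts had similar ratios. Of 15 astrocyte genes 3 fell (median -0.87), of 12 oligodendrocyte genes 3 fell (median -1.22), and of 7 genes of oligodendrocyte precursors 1 fell (median -1.35). Without bound replicate 1 the astrocyte and oligodendrocyte counts were both 0, and without bound replicate 2 they were 6 and 3. The glutamate transporter Slc1a3 of astrocytes fell to 67.5 and 39.5 TPM from 111 and 127 TPM (-1.05 ± 0.29 (SE), adjusted p = 0.0289), and without bound replicate 1 or with either input left out it was not called (-0.65, -1.01 and -1.09). Aqp4, the water channel of astrocyte endfeet that abut the vessel wall, was at 9.69 and 11.0 TPM in bound and 16.6 and 19.7 TPM in input (-1.15 ± 0.40 (SE), adjusted p = 0.0695) and was not called. Glul, glutamine synthetase, was at 905 and 574 TPM in bound and 634 and 531 TPM in input (-0.05 ± 0.23 (SE), adjusted p = 0.944), with overlapping libraries. In myelinating cells, Cnp, a myelin enzyme, fell to 73.2 and 69.7 TPM from 121 and 103 TPM (-1.17 ± 0.22 (SE), adjusted p = 0.00301, and -0.88 with no call without bound replicate 1). The myelin protein gene Mbp, at 352 and 471 against 704 and 601 TPM (-1.18 ± 0.38 (SE), adjusted p = 0.0506), had lower levels in both bound libraries without passing. Pdgfra, the growth factor receptor of precursors, fell to 3.17 and 6.81 TPM from 8.74 and 8.28 TPM (-1.35 ± 0.22 (SE), adjusted p = 0.000977).

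Neural transcripts remained abundant in the pull-down. The 14 pan-neuronal genes summed to 2548 and 3338 TPM in bound and 4370.5 and 4783 TPM in input, and the 15 astrocyte genes to 2115 and 2234 TPM in bound and 2549.5 and 2573 TPM in input. The 12 oligodendrocyte genes summed to 1425 and 1409 TPM in bound and 2796 and 2241 TPM in input. In bound replicate 2 the pan-neuronal sum was above the pan-endothelial sum of 1195 TPM, and in bound replicate 1 both sums were close, at 2548 and 2518 TPM. Glul, the most abundant transcript of the astrocyte list in bound replicate 1, exceeded Pecam1 and Cldn5 in level in both bound libraries.

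**Figure D3:**
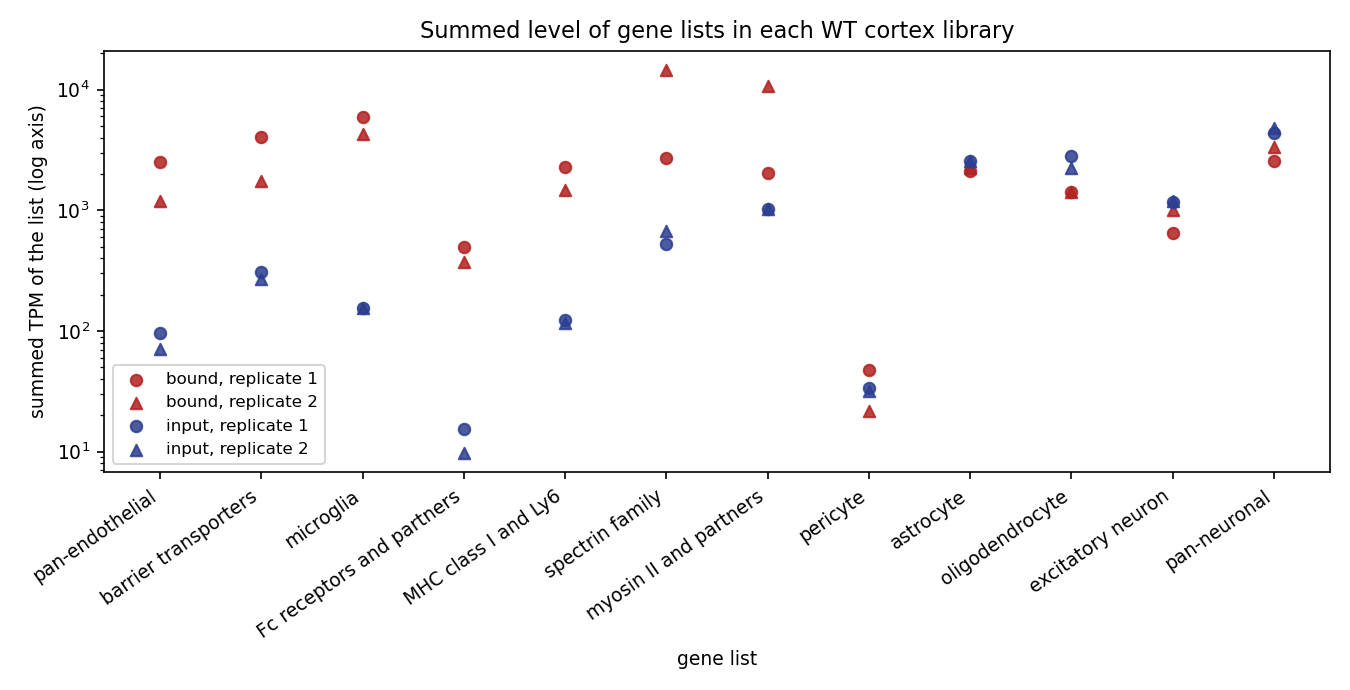
Summed TPM of each gene list on a log axis, with 1 point for each bound and input library of WT cortex. The microglia sum is 156 and 156 TPM in input and 5885 and 4276 TPM in bound, and the pan-neuronal sum is 4370.5 and 4783 TPM in input and 2548 and 3338 TPM in bound.

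Lists of other cells of the vessel wall gave few calls. Of 11 pericyte genes 0 were called in either direction (median -1.31; 1 lower without bound replicate 1 and 2 lower without bound replicate 2), and the list summed to 47.9 and 21.7 TPM in bound and 33.8 and 32.0 TPM in input. Pdgfrb, the receptor by which pericytes respond to ECs, was at 0.377 and 0.962 TPM in bound and 1.20 and 1.54 TPM in input (-1.39 ± 0.45 (SE), adjusted p = 0.0529). Rgs5, a signaling regulator of pericytes, was at 25.6 and 9.89 TPM in bound and 14.2 and 12.8 TPM in input (0.00 ± 0.37 (SE), adjusted p = 1), and its bound libraries lay on either side of the inputs. Of 6 smooth muscle genes tested 1 rose, the myosin heavy chain gene Myh11, with 3.87 and 0.732 TPM in bound and 0.203 and 0.229 TPM in input (2.51 ± 0.54 (SE), adjusted p = 0.00666). Acta2, smooth muscle actin, was at 7.25 and 1.94 TPM in bound and 1.17 and 0.232 TPM in input (2.19 ± 0.76 (SE), adjusted p = 0.0711). Its log2 fold change was 1.30 and 2.80 without bound replicate 1 and bound replicate 2. It was 3.75 and 1.45 without input replicate 1 and input replicate 2. Myh11 and Acta2 were both highest in bound replicate 1. Myh11 was not called without that library or with either input left out (log2 fold changes 1.59, 2.56 and 2.46). None of 9 genes of fibroblasts and meninges rose and 4 fell, a count that was 1 without bound replicate 1, 5 without bound replicate 2, and 3 and 2 without input replicate 1 and input replicate 2. They included the matrix proteoglycan Dcn (log2 fold change -1.95, and not called without bound replicate 1, at -0.95, or with either input left out, at -2.07 and -1.82) and the collagen chain Col1a2 (-1.38).

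Microglial transcripts were enriched in the pull-down, with a median log2 fold change close to that of the pan-endothelial genes. All 12 microglia genes were called higher in bound, the least with a log2 fold change of 4.08 and the most with 5.21 (median 4.47). Their TPM ratio had a median of 32.1, with 37.0 in replicate 1 and 27.3 in replicate 2, beside 32.5 for the pan-endothelial genes. The 12 genes summed to 5885 and 4276 TPM in bound and 156 and 156 TPM in input, a larger bound sum than that of any of the endothelial lists. All 12 met the criteria for EC-enriched transcripts. The count was 12 of 12 in each alternative setting and with each library left out. Whether these transcripts lay on tagged ribosomes was not tested.

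Ctss (chr3:95526786-95556403, plus strand), a lysosomal protease, was at 1479 and 1079 TPM in bound and 34.9 and 31.4 TPM in input (4.85 ± 0.30 (SE), adjusted p = 5.12e-07). Csf1r, the receptor on which microglial survival depends, was at 321 and 224 TPM in bound and 8.43 and 9.22 TPM in input (4.47 ± 0.24 (SE), adjusted p = 4.42e-07). In both genes, both bound libraries were far above both inputs, and bound replicate 1 was the higher by less than 2-fold. Genes that tell microglia from other macrophages behaved alike. P2ry12, a purine receptor, was at 473 and 358 TPM in bound and 17.4 and 19.6 TPM in input (4.08 ± 0.48 (SE), adjusted p = 7.13e-05), and Tmem119 was at 211 and 142 TPM in bound and 5.90 and 4.66 TPM in input (4.47 ± 0.34 (SE), adjusted p = 1.98e-06). The chemokine receptor Cx3cr1 rose by 4.30, and the lectin Siglech by 4.27. The complement chains C1qa, C1qb and C1qc rose by 4.72, 4.37 and 4.24, with C1qc at 174 and 132 TPM in bound and 6.61 and 5.46 TPM in input. Fcrls, whose promoter is printed above, was at 359.9 and 264 TPM in bound and 9.95 and 7.14 TPM in input (4.71 ± 0.46 (SE), adjusted p = 1.2e-05).

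Lists of Fc receptors and of other myeloid genes were drawn up after these values were seen and are given as a description. Of 7 Fc receptor genes and signaling partners tested 6 were called higher (median 4.64): the activating receptors Fcgr1 (4.43) and Fcgr3 (4.64), the inhibitory receptor Fcgr2b (3.49), the common chain Fcer1g (4.52), the adaptor Tyrobp (5.08) and its partner Trem2 (4.73). With the member that had no input read placed at its floor, the median was 4.52. Tyrobp was at 105 and 116 TPM in bound and 2.22 and 2.95 TPM in input, and its bound libraries differed little. All 8 other myeloid genes were called higher (median 4.00), among them the myeloid master regulator Spi1 (4.03), the interferon regulatory factor Irf8 (3.97), the integrin Itgam (4.72), and Sall1, a microglial identity factor (2.61). Genes of other leukocytes and of border macrophages were low. Of 6 tested, Ptprc, the pan-leukocyte phosphatase shared with microglia, rose to 12.2 and 6.50 TPM from 0.550 and 0.508 TPM, and Cd52 had no input read and was at least 52.9-fold higher over the floor of 3 reads. The macrophage receptors Mrc1 (0.60), Cd163 (0.00) and Lyve1 (1.45) were not called, and Mrc1 was at -0.47 without bound replicate 2. The T cell gene Cd3e and the neutrophil genes S100a8 and S100a9 had 0 reads in all 4 libraries.

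Lists of blood and ventricle cells gave few calls. Of 5 erythroid genes 1 was called, Hba-a1, at 13.3 and 34.0 TPM in bound and 2.44 and 2.03 TPM in input, but its near-identical copy Hba-a2 had a log2 fold change of 0.01 and Hbb-bs one of 0.53, so that the split of reads between the alpha globin copies is uncertain. Of 4 platelet genes tested, Gp9 was called, with 90 and 28 bound reads and none in input, at least 39.7-fold higher over the floor, and it was not called without bound replicate 1 or with either input left out. Choroid plexus epithelium genes gave 2 lower calls of 11 and ependymal genes none of 5. The epithelial count was 1 lower without bound replicate 1, and 5 lower and 1 higher without bound replicate 2, where 1 ependymal gene was lower. Of 10 immediate early genes, Dusp1 and Ier2 rose, by 2.36 and 1.85, and neither was called without bound replicate 1 (0.47 and 1.65) or with either input left out.

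A group of long cytoskeletal transcripts stood out among the most abundant bound RNAs, and lists of their families were drawn up after that was seen. Sptan1, the alpha chain of nonerythroid spectrin, the lattice under the cell membrane, was at 1147 and 9414 TPM in bound and 347 and 464 TPM in input (3.20 ± 0.66 (SE), adjusted p = 0.00541). Sptbn1, a beta chain, was at 678 and 3546 TPM in bound and 122 and 134 TPM in input (3.83 ± 0.59 (SE), adjusted p = 0.0006). In both, bound replicate 2 was several times bound replicate 1. Without bound replicate 2 the log2 fold change of Sptan1 was 0.89 and that of Sptbn1 1.99, and Sptbn1 was still called. Sptb (chr12:76580488-76710547, minus strand), the beta chain known from red cells, was at 728 and 533 TPM in bound and 7.27 and 11.7 TPM in input (5.65 ± 0.31 (SE), adjusted p = 4.42e-07), with bound replicate 1 the higher. Of 7 spectrin genes 4 rose, which became 2 without bound replicate 2 or with either input left out, and their sum was 2721 and 14559 TPM in bound and 522 and 668 TPM in input, which made 1.46% of all TPM in bound replicate 2.

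Linkers of the cytoskeleton also had members that rose. Of 7 plakins, large linker proteins, 3 rose, Dst (137 and 669 against 29.9 and 34.0 TPM), Macf1 (299 and 1141 against 53.7 and 60.1 TPM) and Plec (log2 fold change 2.75). Without bound replicate 2 all 3 were still called, with smaller log2 fold changes, among them 1.54 for Dst and 1.42 for Plec. Of 8 nonmuscle myosin II genes and actin partners 6 rose, and 1 did without bound replicate 2 or with either input left out. Myh9 was at 358 and 792 TPM in bound and 72.3 and 50.6 TPM in input (2.71 ± 0.38 (SE), adjusted p = 0.000273), and Myh10, the form common in neurons, was at 652 and 3116 TPM in bound and 366 and 345 TPM in input (1.73 ± 0.55 (SE), adjusted p = 0.0498). Without bound replicate 2, Myh9 was at 1.82, while Myh10 was not called and its log2 fold change was -0.11. The actin binding proteins of dendritic spines Dbn1 and Ppp1r9a also rose. Dbn1 was at 162 and 1231 TPM in bound and 74.1 and 75.7 TPM in input (2.77 ± 0.65 (SE), adjusted p = 0.0115), and Ppp1r9a was at 280.4 and 2736 TPM in bound and 108 and 94.5 TPM in input (3.39 ± 0.75 (SE), adjusted p = 0.00795). Without bound replicate 2 the log2 fold changes of Dbn1 and Ppp1r9a were 0.58 and 0.67, and Sptan1, Dbn1, Ppp1r9a and Myh10 were not called with either input left out. None of 3 ankyrins was called, although Ank2 was at 465 and 2084 TPM in bound and 228 and 277 TPM in input (2.79 ± 1.03 (SE), adjusted p = 0.0846). The log2 fold change of Ank2 was 3.74 without bound replicate 1 and 1.25 without bound replicate 2. The sums of these families were higher in bound replicate 2, whereas the pan-endothelial sum was higher in bound replicate 1.

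**Figure D4:**
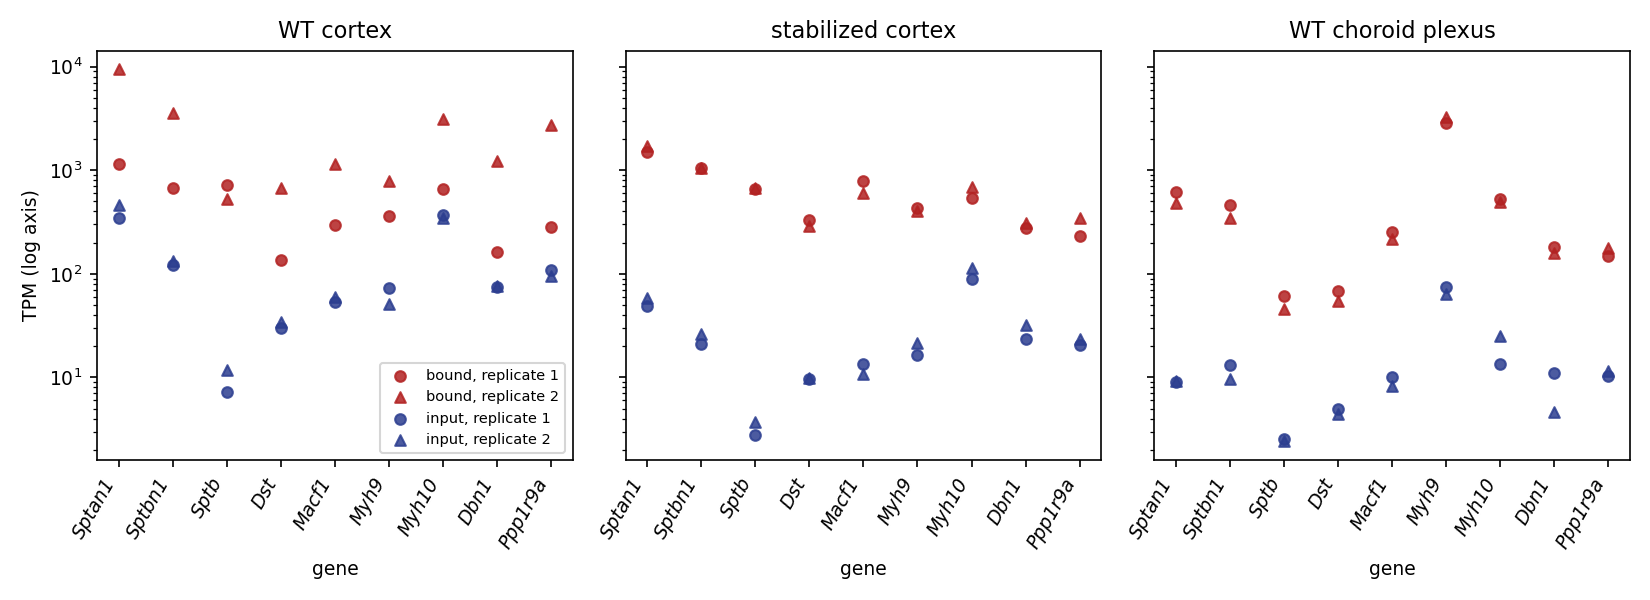
TPM on a log axis of cytoskeletal transcripts in bound and input libraries, 1 panel for each RiboTag preparation shown and 1 point for each library. In WT cortex, Sptan1 is at 1147 and 9414 TPM in bound and 347 and 464 TPM in input, and bound replicate 2 lies above bound replicate 1 for most of these genes but not for Sptb.

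Beyond the lists, the 12 EC-enriched transcripts with the highest log2 fold changes mixed endothelial, myeloid and other genes. The highest, Rps23-ps1, is a processed pseudogene with 418 and 323 TPM in bound and no input read, at least 1991-fold higher over the floor, and its parent Rps23, a ribosomal protein gene, showed the reverse at 23.7 and 8.24 TPM in bound and 212 and 227 TPM in input (log2 fold change -3.89). The copies share most of their sequence, so how their reads were divided is uncertain and neither value is read further. Ncf4, a subunit of the phagocyte oxidase, had 296 bound reads and 1 input read, a ratio of 299 (95% counting interval 53.3 to 11852). Cd37, a leukocyte tetraspanin, rose by 6.79, Rnf125 by 6.78, Klhl6 by 6.17, the secreted lipocalin Lcn2 by 5.76, AU021092 by 5.91 and the class I gene H2-T24 by 5.67. Fam167b had 272 bound reads and 3 input reads, a ratio of 91.6 (95% counting interval 31.0 to 447), and the antisense gene Gm47551 had 28 bound reads and no input read, at least 9.43-fold higher, a call that was lost without input replicate 2. Klf2 and Sptb completed the 12.

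Of the 763 lower genes, 420 were at 10 TPM or more in both inputs, and 392 of these were nuclear protein-coding genes. The 12 with the lowest log2 fold changes were mostly pseudogenes and short RNAs. No bound read was counted for Gm29668, Gm6061, Ppih, Gm27517, Gm10563, Gm24895 and mt-Tk, which were lower by at least 209-fold, 184-fold, 91.4-fold, 43.2-fold, 13.5-fold, 13.2-fold and 4.95-fold over a floor of 3 bound reads. Among these only Ppih, a peptidyl-prolyl isomerase of the spliceosome, is a well-known protein-coding gene. The others were Gm28437, Rps23, Gm6863, mt-Nd3 and Gm10193, with log2 fold changes of -3.91 to -3.37. Gm6061, Gm10563 and Gm6863 were not called whichever library was left out. Ppih, Gm27517, Gm24895, mt-Tk and Gm10193 were not called without bound replicate 1, and Gm29668 was not called without input replicate 1. With either input left out Gm10193 also lost its call, and mt-Tk lost it without bound replicate 2 or input replicate 2. Without bound replicate 1 and without bound replicate 2, Gm10193 was at -2.20 and -8.60 and mt-Nd3 at -2.41 and -6.20, and Gm28437 ranged from -5.13 without bound replicate 2 to -2.20 without input replicate 2. Pseudogenes can share sequence with expressed genes or with the mitochondrial genome. How reads were divided between such copies was not tested, and the values of the pseudogenes in this group are uncertain.

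The nuclear protein-coding genes with the highest bound TPM were led by Cst3, a secreted protease inhibitor abundant in microglia and astrocytes, at 10822 and 9904 TPM in bound and 1089.6 and 1272 TPM in input (2.85 ± 0.21 (SE), adjusted p = 1.64e-06). Actb, cytoplasmic actin, followed Sptan1 in mean level at 5461 and 3387 TPM in bound and 1379.5 and 1178 TPM in input (1.16 ± 0.21 (SE), adjusted p = 0.00216), and the actin sequestering peptide Tmsb4x rose by 1.52. The elongation factor Eef1a1 and the chaperone Hsp90ab1, which all cells use, were not called, at 0.06 and -0.38.

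RNA that is not translated on cytoplasmic ribosomes was lower in part. Of 13 mitochondrially encoded protein genes 10 fell (median -1.13), and their sum was 97416 and 113758 TPM in bound and 227768 and 239612 TPM in input. Without bound replicate 1 the count of 10 went to 3 (mt-Nd3, mt-Nd5 and mt-Atp8), and without input replicate 1 it was 7, with 2 genes called higher. Per the methods, the homogenate was cleared of mitochondria by centrifugation before the antibody was added. The input is described as an aliquot of homogenate, without a statement that it was cleared. Whether this step bears on the lower calls was not tested. Among the 3 genes that were not called, mt-Co2 was listed at 6501 and 0 TPM in the inputs and mt-Co3 at 1703 and 62.4 TPM, so that their inputs disagreed. Of 12 untranslated nuclear RNAs 2 fell (median -0.58): Rn7sk, a small regulator of transcription elongation, at 506 and 389 TPM in bound and 1289 and 1053 TPM in input (-1.75 ± 0.21 (SE), adjusted p = 7.88e-05), and Rian (-1.05, and -0.43 with no call without bound replicate 1). Malat1, an abundant nuclear RNA, was not called at -0.44. Of 77 ribosomal protein genes 1 rose and 4 fell, with a median of -0.03, while 3 rose without bound replicate 1 and 9 fell without bound replicate 2.

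The pull-down was next set beside ECs isolated as cells. In sorted WT cerebellum, which shares no library with the RiboTag data, 841 of 18768 genes tested (4.48%) were higher in GFP-positive than in GFP-negative cells and 937 (4.99%) lower. All 669 EC-enriched transcripts of the cortex pull-down were tested there: 290 (43.3%) were higher in GFP-positive cells, 19 (2.84%) lower and 360 not called. Their median log2 fold change in the sort was 1.78, with -0.07 for all genes. By the same criteria the sort gave 717 EC-enriched transcripts, of which 289 were shared, 43.2% of the pull-down list and 40.3% of the sorted list. The tissues differ, cortex in one and cerebellum in the other, as do the methods of isolation, and their parts cannot be told apart.

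Pan-endothelial genes and barrier transporters were mostly higher in both experiments. In the sort, 15 of 16 pan-endothelial genes were called higher, with sums of 7651 and 7623 TPM in GFP-positive and 48.5 and 44.6 TPM in GFP-negative cells, and so were 15 of 18 barrier transporters. Of other endothelial lists, 13 of 18 transcription factors, 13 of 18 vascular signaling genes, 11 of 15 of the basement membrane and integrins, 8 of 13 of junctions, 8 of 12 of class I and Ly6 and 5 of 9 of fenestrae and caveolae were higher there, and so were 3 of 11 arterial genes, 4 of 11 of veins and adhesion and 6 of 18 Wnt receptors and targets. Of 14 genes of vessel tone and clotting 6 were higher and 2 lower, and 1 signaling gene was lower. Microglia genes did not share that direction, with 12 of 12 higher in bound, and 0 higher and 3 lower in GFP-positive cells. Of the genes called lower, Cx3cr1 was at 0.0161 and 0.0738 TPM in GFP-positive and 5.50 and 8.95 TPM in GFP-negative cells. The 12 microglia genes summed to 24.8 and 13.8 TPM in GFP-positive and 246 and 325 TPM in GFP-negative cells. Pericyte genes had no call in the pull-down and 4 of the 12 tested in the sort higher in GFP-positive cells, where their sum was 1101 and 917 TPM, with 198 and 108 TPM in GFP-negative cells. Calls on the neural lists differed between lists. The 14 pan-neuronal genes, 7 of them called lower, summed to 70.4 and 50.7 TPM in GFP-positive and 768 and 623 TPM in GFP-negative cells, and the 15 astrocyte genes, 10 of them called lower, summed to 663 and 514 TPM in GFP-positive and 10925 and 3436 TPM in GFP-negative cells. Oligodendrocyte genes had 8 lower calls of 12, their precursors 1 of 7 and excitatory neuron genes 1 of 11, with 4 of these 11 above 0. Of 8 inhibitory neuron genes 4 were lower and 1 was higher, Lhx6, at 4.77 and 1.01 TPM in GFP-positive cells and 0 in GFP-negative cells. These are values of each experiment, and the difference between them was not tested because the tables were fitted separately.

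Among the 19 EC-enriched transcripts that were lower in GFP-positive cells were Ppp1r9a, Lgmn, Itgb5, C1qb, Selplg, Cx3cr1, Frmd4a, Cd9, Plxnb2, Arsb, Mpeg1, Nckap1l, Irf8, Gpr165, Sgpl1, Maf and Blnk. Those listed were picked because they were called in opposite directions and were not chosen by the rule for named genes. C1qb and Cx3cr1 are among the 3 on the microglia list, Irf8, Mpeg1 and Lgmn on the list of other myeloid genes, and Ppp1r9a on a cytoskeletal list. Of these 19, Ppp1r9a, Gpr165 and Blnk were not called higher in the pull-down with either input left out. Spectrins were divided in the sort, with 2 higher and 2 lower of 7. All 3 ankyrins were lower in GFP-positive cells.

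**Figure D5:**
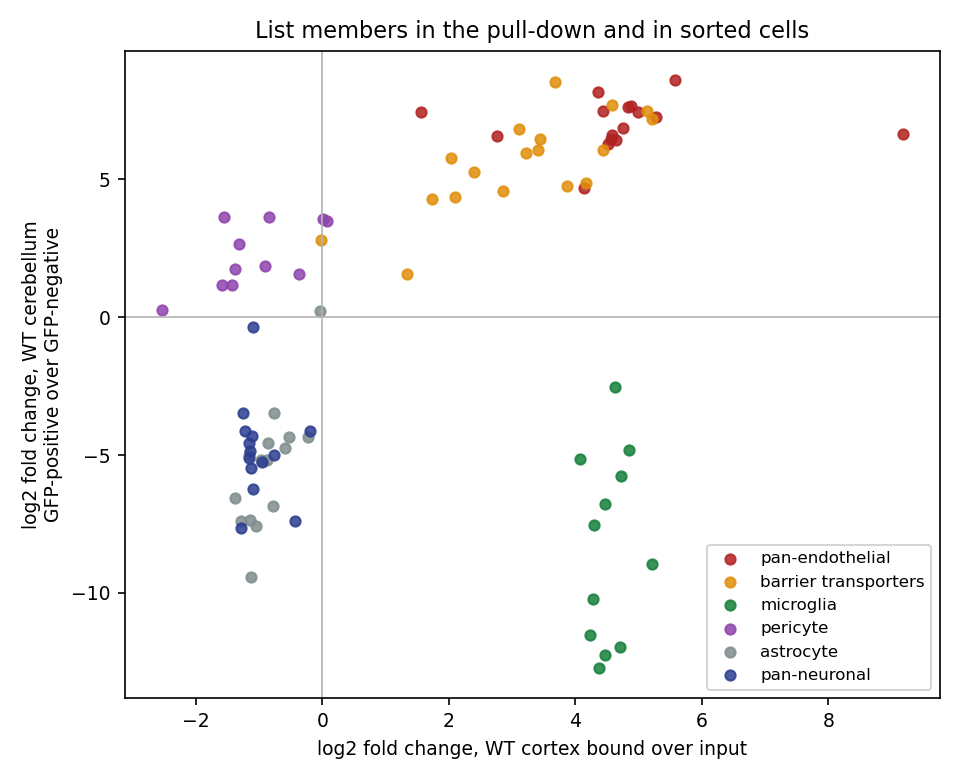
Log2 fold change of WT cortex bound over input on the horizontal axis and of GFP-positive over GFP-negative cells of WT cerebellum on the vertical axis, 1 point for each list member. Of the 6 lists plotted, pan-endothelial genes lie at the upper right (Cldn5 at 5.57 and 8.59), microglia genes at the lower right (Ctss at 4.85 and -4.82), and pan-neuronal genes at the lower left. Barrier transporters are also at the upper right apart from Tfrc at -0.02 on the horizontal axis, and astrocyte genes at the lower left apart from Glul at 0.24 on the vertical axis.

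In the pull-down from stabilized cortex, 1836 genes (10.1%) were higher in bound and 2223 (12.2%) lower, again of 18241. All 16 pan-endothelial genes (median 5.47), all 18 barrier transporters (median 4.49) and all 12 microglia genes (median 4.56) were higher. Neural genes had more lower calls than in WT cortex, with 10 of 14 pan-neuronal genes (median -1.89), 11 of 15 astrocyte genes (median -1.81) and 10 of 12 oligodendrocyte genes (median -2.62). Tested gene by gene as a difference of enrichments between stabilized and WT cortex, 54 genes (0.296%) had higher and 49 (0.269%) lower enrichment, and among them were 0 of the 14 pan-neuronal genes, 0 of the 12 microglia genes and 2 of the 15 astrocyte genes, both with lower enrichment. These totals were not stable, with 273 and 119 without WT bound replicate 1, 337 and 94 without WT bound replicate 2, 19 and 18 without WT input replicate 1, 21 and 17 without WT input replicate 2, 275 and 218 with DESeq2, 265 and 446 without a filter and 17 and 20 with the length offset. Of mitochondrially encoded genes 6 of 13 had lower enrichment in stabilized cortex. Ctss was at 734 and 633 TPM in stabilized bound and 11.6 and 13.2 TPM in stabilized input, and Cldn5 was at 60.1 and 53.9 TPM in stabilized bound and 0.599 and 0.509 TPM in stabilized input. Levels are not compared between the preparations, since their shares of the remaining class of genes, defined above, differed. These genes took 53.9% and 49.9% of TPM in stabilized input and 67.2% and 67.7% in stabilized bound. In WT choroid plexus they took 69.1% and 68.4% in input and 67.5% and 66.4% in bound. In WT cortex they took 10.7% and 7.24% in input and 16.4% and 18.6% in bound. Whether this bears on the differences of enrichment was not tested.

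In WT choroid plexus, whose ECs are fenestrated and have no BBB, 1582 genes (8.67%) were higher in bound and 1211 (6.64%) lower. All 16 pan-endothelial genes were again higher (median 3.75). Of 18 barrier transporters 5 were higher (median 0.16), and 11 had a significantly smaller enrichment than in cortex. Of all genes, 5.69% had a smaller enrichment and 6.39% a larger one. The 1038 genes with a smaller enrichment became 2166 without a filter on low counts. The 1165 with a larger one became 332 with a length offset. The count of larger ones went from 1165 to 629 without WT cortex bound replicate 1, 688 without input replicate 2 and 1947 without bound replicate 2. Slc2a1 was at 21.7 and 27.7 TPM in bound and 4.62 and 7.05 TPM in input of choroid plexus, and its difference of enrichment from cortex was -3.35 ± 0.50 (SE), adjusted p = 0.000998. Of 12 microglia genes 10 were higher in bound (median 2.81) and 8 had a smaller enrichment than in cortex, with a sum of 146 and 226 TPM in bound and 15.2 and 16.7 TPM in input. Spectrins had 4 of 7 genes higher with a median of 3.51, beside 3.38 in cortex, and 7 of 8 myosin II genes and partners were higher. The cortex spectrin median was 3.20 with the member that had no input read placed at its floor. Ribosomal protein genes had 65 lower calls of 77 in choroid plexus and 4 in cortex.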

How the data were processed

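RNA from 2 bound and 2 input libraries of WT cortex had been amplified and sequenced as single-end reads. Per the labels, the authors quantified transcripts with Salmon 0.10.2 (the submitters' processing notes also name kallisto 0.44.0, deepTools, mm10 and GRCm38). The deposited values are estimated counts and TPM per transcript, with replicates kept apart. Here both were summed per gene (49585 genes), and estimated counts were rounded. All 16 RiboTag libraries were fitted together with edgeR 4.0.16 in R 4.3.3 (TMM, filterByExpr, quasi-likelihood test, 8 groups, 8 residual degrees of freedom, Benjamini-Hochberg adjustment), without the EBSeq test of the authors. Calls needed an adjusted p below 0.05 and at least a 2-fold change. The 12 sorted WT libraries were fitted apart. TPM ratios used genes with at least 1 TPM in input. Where 1 group had no read, a floor of 3 reads over the group gave the bound on a fold. Intervals cover counting error only, at 95%, and reads without molecular identifiers are not independent molecules.

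The libraries and the 36 gene lists were chosen with earlier results of these data known, and 6 more lists were added after these values were seen. Named genes were list members that the counts turn on, the 12 EC-enriched transcripts with the highest and the 12 genes at 10 TPM or more in input with the lowest log2 fold change, the 10 most abundant nuclear protein-coding genes and non-endothelial list members in bound, non-endothelial list genes called higher, Rpl22, Pdgfb, Ctnnb1 and EC genes that the study names. Alternatives were other scalings, DESeq2 1.42.0, no filter, the 4 libraries alone, a length offset, a replicate block, other TPM settings and leaving out each library, and, added after the data were seen, nuclear protein-coding genes only. The test was checked on simulated data. Some list members are counted in their lists and not reported here by name.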

Additional observations from a re-analysis of the deposited data

Results flagged for a closer look

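Pan-endothelial, barrier transporter and microglia genes are given here where their enrichment in WT cortex differed from that in another preparation, by the interaction term of the edgeR fit. Values are the log2 enrichment of the other preparation minus that of WT cortex, with the standard error where it is given, and each preparation has 2 bound and 2 input libraries.

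Against WT choroid plexus, 11 of 18 barrier transporters had a smaller enrichment. The monocarboxylate transporter gene Slc16a4 differed by -5.31, Slco1a4 by -4.47, Slco1c1 by -4.12, Abcc4 by -4.00 and Slc22a8 by -3.75. The amino acid transporter genes Slc7a5, Slc7a1 and Slc3a2 differed by -3.42, -1.75 and -1.71, Slc2a1 by -3.35, the thiamine transporter gene Slc19a3 by -2.69 and Slc16a1 by -2.23. For Slco1a4 the enrichments themselves were 4.57 in cortex and 0.10 in choroid plexus (adjusted p = 2.32e-05).

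Of the pan-endothelial genes, 6 had a smaller enrichment in choroid plexus: Pecam1 by -2.91, Emcn by -1.80, Eng by -1.80, Cldn5 by -1.71, Tie1 by -1.48 and Kdr by -1.30. Egfl7 had a larger one, by 1.39. All of these were called higher in bound in both tissues.

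Of the microglia genes, 8 had a smaller enrichment in choroid plexus. Among them, Aif1 differed by -3.52, Tmem119 by -3.39, C1qa by -2.35, Fcrls by -2.07, Ctss by -1.94, Csf1r by -1.41 and Cx3cr1 by -1.39. Choroid plexus tissue differs from cortex in the cells of its input as well as of its bound fraction, and these cannot be told apart in a ratio of the fractions.

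Between stabilized and WT cortex, 2 genes of these lists differed. Egfl7 had a larger enrichment in stabilized cortex, by 2.02 ± 0.39 (SE, adjusted p = 0.0413), and Pecam1 a smaller one, by -3.08 ± 0.44 (SE, adjusted p = 0.00847). The enrichment of Egfl7 was 1.56 in WT cortex, 3.59 in stabilized cortex and 2.96 in WT choroid plexus. That of Pecam1 was 4.99, 1.91 and 2.07, so both genes differed from WT cortex in the same direction in both other preparations. Totals of such calls were not stable across settings, as given above. Genotype and preparation cannot be told apart here.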

How the results depend on the processing

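The count of genes called lower in bound depended on the processing. From 763 it went to 503 with RLE size factors, 387 with the upper quartile, 321 with total counts, 461 without a filter on low counts, 96 with the 4 WT cortex libraries alone and 173 with an offset for transcript length, and leaving out 1 library gave 159 to 1848, the lowest without bound replicate 1 and the highest without bound replicate 2. Higher calls ranged from 977 to 1937 over all settings, and 551 to 669 of the 669 EC-enriched transcripts were still called higher. With a minimum of 1 TPM in place of 10 there were 1256 EC-enriched transcripts. For differences of enrichment with choroid plexus, higher calls were 332 with the length offset and 629 to 1947 with 1 library left out, and lower calls 2166 without a filter. For those with stabilized cortex, higher calls were 275 with DESeq2, 265 without a filter, 17 with the length offset and 19 to 337 with 1 library left out, and lower calls 218, 446, 20 and 17 to 119. In the sort, lower calls were 2246 with DESeq2 and 1823 without a filter. The pan-endothelial TPM ratio was 22.8 with a pseudocount of 1 TPM and 21.2 to 47.3 with 1 library left out, and the pan-neuronal ratio 0.537 to 0.769. The microglia median was 4.81 without a filter, 4.82 with the 4 libraries alone and 4.87 with the length offset. The pan-neuronal median was -0.80 under these same 3 settings and -1.38 to -0.68 with 1 library left out. Relative to the median of all genes, the microglia median stayed between 4.52 and 5.15 and the pan-neuronal median between -0.90 and -0.62. Over 439 named or listed genes, 5170 values kept their call, 349 lost it, 123 gained one and 4 that were called in either fit changed sign: Wnt5a at -0.39 with the length offset, Myh10 at -0.11 without bound replicate 2 (2.73 without replicate 1), and mt-Co2 at 16.40 and mt-Co3 at 3.81 without input replicate 1 (-1.82 and -1.17 without replicate 2). A further 147 values, of 57 genes, changed sign with no call in either fit and are counted among those that kept it. The causes were not tested.

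The labels do not say that bound and input of 1 replicate number are paired, and their deviations from group means correlated with r = 0.0402 in WT cortex and 0.0741 to 0.122 in the other preparations. With the replicate block, 1316 genes were higher and 1087 lower, and 639 of the 763 lower genes were still called.

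With 2 libraries a group, no leave-one-out value has a spread of its own for the lone library, which was assumed to vary like the other groups. Genes with few input reads have folds that depend on the floor.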
